A study of Mus musculus with 8 samples.

Results

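Small nucleolar RNAs (snoRNAs) were described in 4 DTC tumors and 4 mammary tumors of mice, with 1 Affymetrix MoGene 2.0 ST array per tumor. They were taken as every probe set to which the platform annotation gives exactly 1 gene symbol starting with Snord or Snora. That rule chose 75 of the 41345 probe sets, which stand for 73 genes. Of these, 47 probe sets were Snord and 28 were Snora, with 2 probe sets each for *Snora33* and *Snora19*. The 2 probe sets of *Snora19* held the same value on every array, so they are a single measurement, although the counts below include both. A further 43 probe sets list several symbols, of which at least 1 is a Snord or Snora, and they are no members.

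DTC tumors grew from disseminated tumor cells in the bone marrow of BALB-neuT mice. An activated rat *Her2/neu* oncogene, driven by the MMTV promoter, gives these animals mammary carcinomas. Bone marrow cells (3000000 to 5000000 per the labels) were injected under the skin of NSG mice, which lack mature T, B and NK cells. Per the labels, cells of both groups were injected in Matrigel with 1 µg bFGF. The labels call these disseminated cells early, whereas the study's text obtained DTC tumors from late donors. The labels of the mammary tumors name TUBO cells, a line grown from a BALB-neuT mammary tumor, and an injection of 100000 tumor cells, whereas primary tumors of BALB-neuT mice are named in the methods. Under the labels' account the mammary group would stem from 1 cell line, whose traits cannot be told apart from the tumor type. Whether the tumors of a group grew in separate mice is given in neither source, and p-values therefore reflect only how far these tumors vary, which may be technical.

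SnoRNAs are short RNAs of the nucleolus, the part of the nucleus where ribosomal RNA is made and trimmed. Box C/D snoRNAs (Snord) guide fibrillarin to sites of ribose methylation, and box H/ACA snoRNAs (Snora) guide dyskerin to uridines that become pseudouridine. A few act instead in the processing of the ribosomal RNA precursor. In mammals most snoRNAs are cut out of the introns of a host gene, so their amount depends on the transcription of the host and on the survival of the excised RNA.

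In the RefSeq table of mouse genes (GRCm38.p6), 70 of the 73 snoRNA genes lay within another gene, 55 of them in at least 1 protein-coding gene and 15 in long noncoding genes only. Strand is not given in that table. *Snord13*, *Snord118* and *Snord89* lay in no such gene. Host transcripts are known for starts rich in pyrimidines, so the 65 bases around the RefSeq start are shown for the hosts of *Snora44*, of *Snord19* and *Snord69*, and of *Snord61*, which are among the largest group differences described below, 40 before the start and 25 from it, on the transcribed strand. Capitals mark runs of 8 or more bases that are all C or T and lie within 30 bases of the start on either side.
Snhg12, chr4:132308638-132308702, plus strand: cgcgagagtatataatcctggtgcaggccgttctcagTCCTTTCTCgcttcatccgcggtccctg
Gnl3, chr14:31019107-31019171, minus strand: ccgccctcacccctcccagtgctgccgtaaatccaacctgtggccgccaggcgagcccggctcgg
Rbmx, chrX:57393012-57393076, minus strand: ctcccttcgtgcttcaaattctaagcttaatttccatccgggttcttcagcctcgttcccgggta
*Snhg12*, a noncoding host of several snoRNAs, has such a run across its start, and the starts of *Gnl3* and *Rbmx* have none in that window. Both hold a run of 8 such bases that begins more than 30 bases before the start and is left in lower case. Of 62 host genes 48 have a start in the RefSeq promoter table, and 13 of these (27.1%) hold such a run, against 25.8% of all 27025 genes there. The share among hosts was therefore close to the background, and a run is a match of letters only.

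SnoRNA probe sets were bright in every tumor. The median level over the 75 was 9.49 on the deposited log2 scale, against 5.38 over all probe sets, and 59 of the 75 lay above the upper quartile of all probe sets (7.18). The top 5% of the array, from 9.54 up, held 36 of them. A mean of 9 or more was reached by 32 of the 47 box C/D members and by 9 of the 28 box H/ACA members, whose median was 7.81. Levels of different probe sets depend on their probes, so this order is one of signal and not of RNA amount. The brightest was a probe set of *Snora33* at 13.38, followed by *Snord87* (12.76), *Snord22*, *Snord47*, *Snord82*, *Snord16a*, *Snora21* and *Snord1b*. The other probe set of *Snora33* ran from 6.32 to 7.60, so the 2 probe sets of that gene are far apart. *Snord85* was the dimmest at 3.83, and was the only member under 4.

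Mammary tumor 2 stood apart in these RNAs. It had the highest of the 8 values for 67 of the 75 probe sets (89.3%), against 13.2% of all probe sets. This was so for 46 of 47 Snord, 21 of 28 Snora, and all 41 members with a mean of 9 or more. Each tumor's level minus the mean of the probe set over the 8 arrays had a median over the members of 0.51 in mammary tumor 2. In the other tumors that median ran from -0.21 in mammary tumor 4 to 0.03 in DTC tumor 2. Mammary tumor 4 was the lowest of the 8 for 30 of the 75 (40%), against 14.4% of all probe sets. Group differences below are therefore given with and without mammary tumor 2. That tumor was picked from these same values. Leaving it out must raise the DTC mean relative to the mammary mean for 74 of the 75 members. The shares over all probe sets do not allow for this choice.

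**Figure D1:**
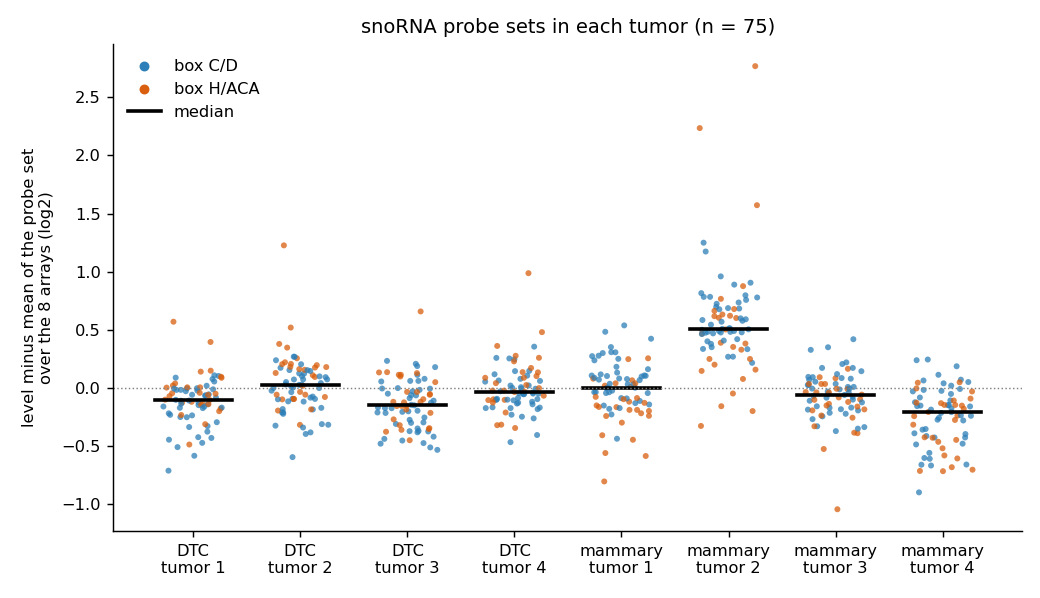
Level of each of the 75 snoRNA probe sets minus its mean over the 8 arrays (log2, vertical axis) in each tumor (horizontal axis), with box C/D members in blue, box H/ACA members in orange and the median as a black line. The median of mammary tumor 2 is 0.51, and those of the other 7 tumors lie between -0.21 and 0.03.

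The widest gaps were those of *Snora74a*, *Snora62* and *Snora75*, all of box H/ACA. *Snora74a*, known as U19, stood at 10.39 in mammary tumor 2, and at 7.06, 7.10 and 6.92 in mammary tumors 1, 3 and 4. Its DTC values were 7.64, 7.31, 7.25 and 7.30, so 7 tumors lay within a narrow band and 1 far above it. *Snora62*, known as E2, stood at 12.17 in mammary tumor 2, and at 9.49, 9.55 and 9.73 in the other mammary tumors. Its DTC values of 9.45, 9.74, 9.72 and 9.62 overlapped with these. *Snora75*, known as U23, stood at 10.24 in mammary tumor 2, at 8.42, 8.28 and 7.95 in the other mammary tumors, and at 8.52, 8.59, 8.72 and 8.60 in DTC tumors. Mammary tumor 2 exceeded the mean of the other mammary tumors by 3.36 for *Snora74a*, 2.58 for *Snora62* and 2.02 for *Snora75*.

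Over the members the median of that difference was 0.61, against -0.002 over all probe sets. It was above 0 for 74 of 75 (background 49.7%) and at least 1 for 9 of 75 (background 0.822%). Beside the 3 above, the 9 were *Snord118* (1.49), *Snord13* (1.14), *Snord43* (1.10), *Snora30* (1.04), *Snord15a* (1.01) and *Snora7a* (1.01). The exception was *Snora61*, at 6.49 in mammary tumor 2 and 6.47, 6.58 and 6.66 in the other mammary tumors.

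**Figure D2:**
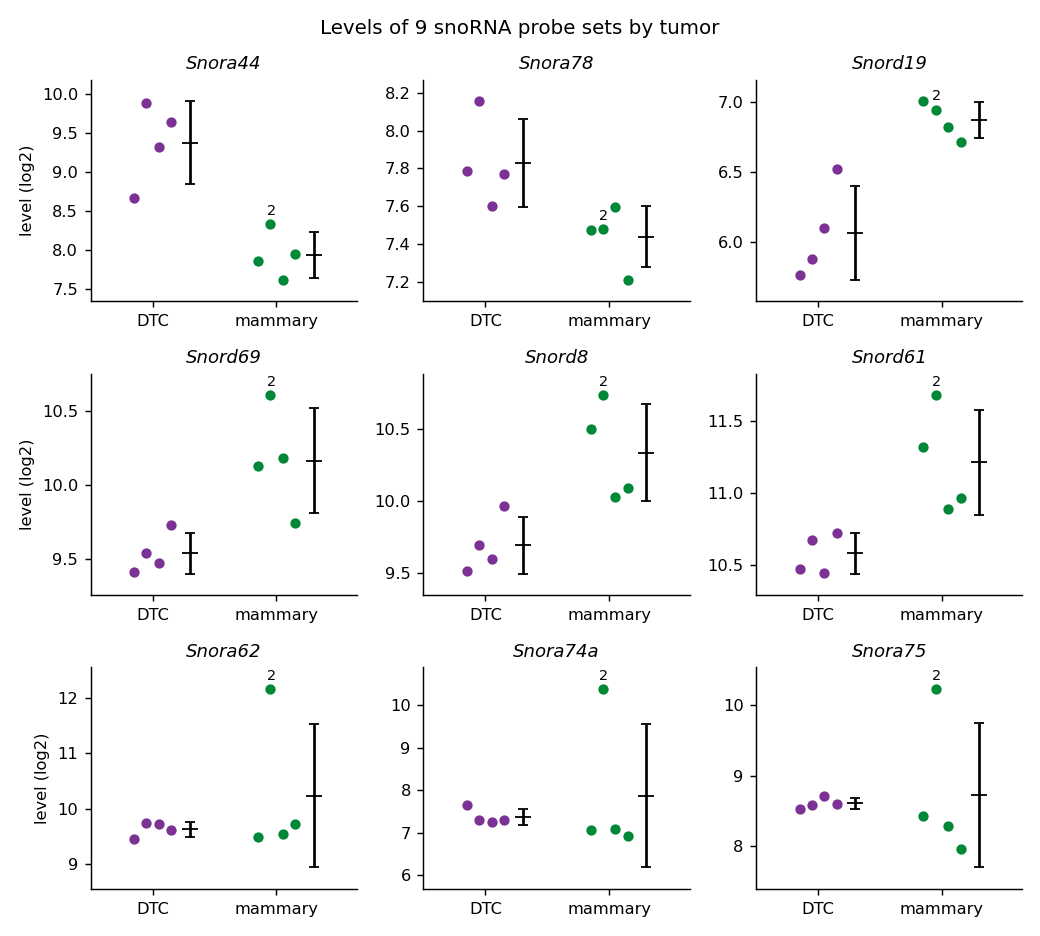
Levels (log2, vertical axes, each with its own range) of 9 snoRNA probe sets in 4 DTC tumors (purple) and 4 mammary tumors (green, tumor 2 marked), with the mean and SD of each group as a black bar. *Snora62*, *Snora74a* and *Snora75* reach 12.17, 10.39 and 10.24 in mammary tumor 2, whereas the 4 DTC values of *Snora44* lie above all 4 mammary values.

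The same tumor was high in some other short RNAs of the nucleus and not in most gene classes. Its median deviation was 0.28 over 6 probe sets of small Cajal body RNAs (Scarna), which guide modification of spliceosomal RNAs, and 0.52 over the 43 probe sets with several symbols. It was -0.02 over 511 microRNA probe sets, -0.005 over protein-coding genes and -0.005 over all probe sets. Of the 511 microRNA probe sets 279 had a mean under 4, and the 80 with a mean of 6 or more had -0.11. Other probe sets with a mean of 9 or more had 0.03, and mammary tumor 2 was the highest for 18.8% of them. *Rnu3a*, a copy of the U3 RNA that acts in the first cleavages of the ribosomal RNA precursor, stood at 9.75 in mammary tumor 2 and at 8.94, 8.98 and 8.15 in the other mammary tumors. Its DTC values of 9.60, 9.50, 9.36 and 9.36 lay between. *Terc*, the H/ACA RNA that serves as the template of telomerase, stood at 9.49 in mammary tumor 2 and between 8.45 and 8.70 in the other mammary tumors. *Rnu11* and *Rnu12* of the minor spliceosome exceeded the other mammary tumors by 0.80 and 0.65, and *Rny3*, a Ro-bound RNA, by 0.72. For *Rn7sk*, a nuclear RNA that holds back transcription elongation, the 2 probe sets differed by 0.07 and 0.07. Their levels of 13.67 to 14.13 lie near the highest probe set mean on the array (14.21). Whether a rise could show at such levels was not tested.

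Over all probe sets the array of mammary tumor 2 correlated with the other mammary arrays at 0.979 to 0.986. All mammary pairs ran from 0.979 to 0.988, and the lowest of them included mammary tumor 2. Pairs of DTC arrays had 0.977 to 0.985 and pairs across the groups 0.975 to 0.984, so these ranges overlapped. They are a description over probe sets that are not independent. Markers of epithelial cells were present in every tumor, with 8 of 8 above 4 and a summed log2 level of 13.36 to 13.55 in DTC and 13.42 to 13.57 in mammary tumors. In mammary tumor 2 the 4 fat cell markers summed to 7.86, against 7.24 to 7.53 in the other mammary tumors and 7.05 to 8.16 in DTC tumors. Its 5 endothelial markers summed to 9.87 against 9.97 to 10.21, and its 3 measured lymphoid markers to 5.29 against 5.55 to 5.77. The macrophage markers (11.29 against 10.89 to 11.60) and the fibroblast markers (11.89 against 11.56 to 12.02) lay within the range of the other mammary tumors, and the muscle markers (7.54 against 7.64 to 7.81) below it. The 4 markers of red blood cell precursors were matched to 0 probe sets of their own. The part of other cell types, RNA quality or labelling in the high snoRNA levels of mammary tumor 2 was not tested. In tumor pieces, fewer cells of a type and less RNA per cell cannot be told apart.

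Host genes of the snoRNAs stood much closer to the other mammary tumors in mammary tumor 2. For 62 of the 75 probe sets a host with a probe set of its own was measured, which gave 46 hosts, 11 of them ribosomal protein genes. Whether each host probe set, that of *Rpsa* among them, lies at the locus of its snoRNA was not checked. Mammary tumor 2 exceeded the other mammary tumors by a median of 0.09 over these hosts, with a range of -0.35 to 0.48. The snoRNAs of the same pairs had a median of 0.61. In 59 of the 62 pairs the difference of the snoRNA was the larger one. Of the 46 hosts 13 were highest in mammary tumor 2, a larger share than the 13.2% of all probe sets. The laminin receptor and ribosomal protein gene *Rpsa*, host of *Snora62*, exceeded the other mammary tumors by 0.20, and *Snhg4*, host of *Snora74a*, by 0.19. *Ncl*, which encodes nucleolin and hosts *Snora75* and *Snord82*, was 0.05 lower in mammary tumor 2.

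**Figure D3:**
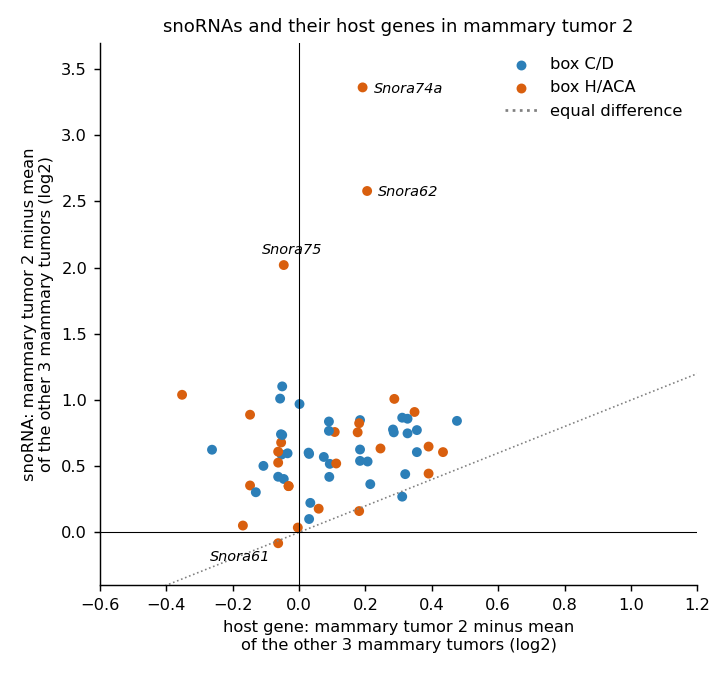
Level in mammary tumor 2 minus the mean of the other 3 mammary tumors (log2) for the host gene (horizontal axis) and for the snoRNA (vertical axis), for 62 snoRNA probe sets with a measured host, with the dotted line at equal difference. In 59 of 62 pairs the point lies above the line, and the hosts span -0.35 to 0.48.

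The spread between tumors also differed between the groups. The median SD of a member was 0.15 over the 4 DTC tumors and 0.37 over the 4 mammary tumors, where all probe sets had 0.19 and 0.18. The mammary SD was the larger one for 65 of 75 members (86.7%), against 46.9% of all probe sets. Without mammary tumor 2 the median mammary SD was 0.17, against 0.16 over all probe sets, and it exceeded the DTC SD for 48 of 75 (64%, background 41.9%). Among DTC tumors, *Snora44* had the largest SD (0.53), and the bright probe set of *Snora33* had the smallest (0.03).

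No snoRNA passed the test between the groups. Log2 fold changes were taken as the DTC mean minus the mammary mean, the reverse of the study's own sign. Of the 75, 37 had an interquartile range above 0.25 (49.3%, against 45.7% of all probe sets) and were tested with limma, and 0 of them passed an adjusted p of 0.05 with a log2 fold change of 1 or more in size, against 0.132% of the 18877 probe sets tested. By the adjusted p alone 0 passed as well (background 0.143%). In the fit of all probe sets, 4 members were higher in DTC tumors at an unadjusted p of 0.05 (5.33%, background 5.3%) and 8 were lower (10.7%, background 6.19%). The 4 higher were all Snora and the 8 lower all Snord. Without mammary tumor 2 these counts were 11 higher (14.7%, background 5.08%) and 7 lower (9.33%, background 5.67%), and 0 passed both thresholds (background 0.0876%). The rise of the higher count was partly fixed by the choice of that tumor, so it is no sign of a group difference. The higher count was also 1 without DTC tumor 2 and 2 without DTC tumor 4, mammary tumor 1 or mammary tumor 4, and the lower count was 5 without DTC tumor 1.

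Most means were lower in DTC tumors, and this rested on mammary tumor 2. The mean was higher in DTC tumors for 22 of 75 members (29.3%), against 53.4% of all probe sets, and the median log2 fold change was -0.10, against 0.02. Without mammary tumor 2 it was higher for 45 of 75 (60%, background 53.4%), and the median was 0.06. For box C/D members the median went from -0.13, with 8 of 47 higher, to -0.01, with 22 higher. For box H/ACA members it went from 0.005, with 14 of 28 higher, to 0.14, with 23 higher. The groups did not overlap for 2 members in the upward direction (2.67%, background 3.21%) and 8 in the downward direction (10.7%, background 4.16%). Without mammary tumor 2 there were 9 and 8 such members (backgrounds 5.52% and 5.96%). The shifts upward without that tumor follow in part from its choice, for which the backgrounds do not allow.

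**Figure D4:**
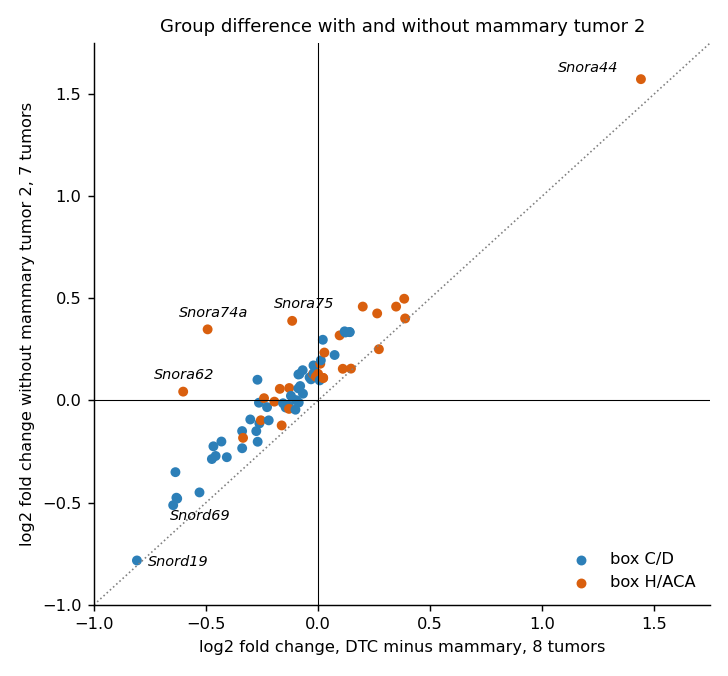
Log2 fold change, DTC minus mammary tumors, of the 75 snoRNA probe sets over 8 tumors (horizontal axis) and without mammary tumor 2 (vertical axis), with the dotted line at equal values. *Snora44* lies at 1.44 and 1.57 and *Snord19* at -0.81 and -0.78, while *Snora62* and *Snora74a* go from -0.60 and -0.49 to 0.04 and 0.35.

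*Snora44* showed the largest difference of all members. It is a box H/ACA RNA from an intron of *Snhg12*. DTC tumors 1 to 4 stood at 8.66, 9.88, 9.31 and 9.64, and mammary tumors 1 to 4 at 7.85, 8.33, 7.61 and 7.94. Every DTC tumor lay above every mammary tumor, and DTC tumor 1 was the nearest to them. The log2 fold change was 1.44 (SE 0.27), with an adjusted p of 0.0742 by limma, and the two-sided exact permutation p was 0.0286, the smallest that 4 against 4 allows. It was thus past the fold threshold and not past the adjusted one. Without DTC tumor 1 the change was 1.68 with an adjusted p of 0.0451, and without mammary tumor 2 it was 1.57 with an adjusted p of 0.0962.

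The other snoRNAs of *Snhg12* did not differ to that extent. *Snora61*, of box H/ACA, had DTC values of 6.64, 6.91, 6.81 and 6.91 and mammary values of 6.47, 6.49, 6.58 and 6.66. The groups overlapped by 1 tumor of each, and the log2 fold change was 0.27 (adjusted p = 0.441 by limma), or 0.25 without mammary tumor 2. *Snora16a*, also of box H/ACA, had a log2 fold change of -0.02, with DTC values of 10.48 to 10.81 and mammary values of 10.36 to 11.10, and it changed sign to 0.13 without mammary tumor 2. *Snord99*, of box C/D, had -0.13, with 11.61 to 12.06 against 11.62 to 12.21, and -0.03 without mammary tumor 2. The host transcript *Snhg12* itself had 6.55, 6.51, 6.42 and 6.79 in DTC tumors and 6.43, 6.34, 6.51 and 6.26 in mammary tumors. Its log2 fold change was 0.18 (SE 0.11, unadjusted p = 0.129 by limma), or 0.17 without mammary tumor 2. The 4 snoRNAs of this host thus spanned 1.57 in log2 fold change, and 1.60 without mammary tumor 2. The median span within the 11 hosts with 2 or more member genes, this one among them, was 0.18, and 0.30 without that tumor. The other hosts had 2 or 3 members each, and a span tends to widen with their number. *Snora44*, already picked as the largest difference of all members, set the width here, so a wide span was fixed by that choice.

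**Figure D5:**
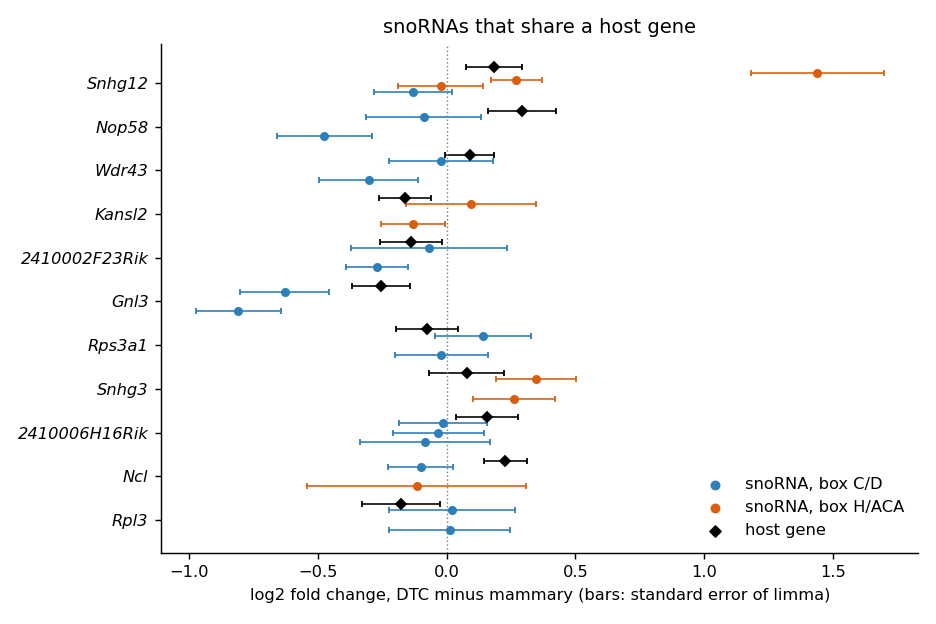
Log2 fold change, DTC minus mammary tumors, over 8 tumors (horizontal axis) for snoRNAs that share a host gene (circles, coloured by box) and for the host (black diamonds), with the standard error of the limma fit of all probe sets as bars. *Snhg12* spans from -0.13 to 1.44, and both snoRNAs of *Gnl3* lie at -0.63 or below.

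The second member with a higher mean and no overlap was *Snora78*, a box H/ACA RNA of *Snhg9*. Its DTC values were 7.78, 8.16, 7.60 and 7.77 and its mammary values 7.47, 7.48, 7.60 and 7.21. DTC tumor 3 and mammary tumor 3 were nearly level. The log2 fold change was 0.39 (SE 0.17, adjusted p = 0.337 by limma), and 0.40 without mammary tumor 2. *Snora68*, at 0.38 (unadjusted p = 0.0460 by limma), or 0.50 without mammary tumor 2, and *Snora61* were the other 2 at an unadjusted p of 0.05 or less, and in both the groups overlapped.

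The largest lower value was that of *Snord19*, a box C/D RNA in *Gnl3*, which encodes the nucleolar protein nucleostemin. DTC tumors 1 to 4 stood at 5.76, 5.87, 6.10 and 6.52 and mammary tumors 1 to 4 at 7.01, 6.95, 6.82 and 6.71. The groups did not overlap, and mammary tumor 2 was not the highest here. The log2 fold change was -0.81 (SE 0.19, adjusted p = 0.124 by limma), and -0.78 without mammary tumor 2. *Snord69*, in the same host, had DTC values of 9.41, 9.54, 9.47 and 9.72 and mammary values of 10.12, 10.61, 10.18 and 9.74. Its log2 fold change was -0.63 (SE 0.20, adjusted p = 0.215 by limma), and -0.48 without mammary tumor 2. DTC tumor 4 and mammary tumor 4 were nearly level. *Gnl3* itself was lower in DTC tumors by a log2 fold change of -0.25 (SE 0.11, unadjusted p = 0.0506 by limma), also -0.25 without mammary tumor 2.

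*Snord8*, a box C/D RNA in the chromatin remodeler gene *Chd8*, had DTC values of 9.51, 9.69, 9.60 and 9.97 and mammary values of 10.50, 10.74, 10.03 and 10.09. The groups did not overlap, and the log2 fold change was -0.65 (SE 0.20, adjusted p = 0.212 by limma), or -0.51 without mammary tumor 2. *Chd8* differed by -0.60 (adjusted p = 0.148 by limma), or -0.55 without mammary tumor 2. *Snord19*, *Snord69*, *Snord8* and *Snora31* (-0.33, in *Tpt1*, at -0.29) lie on chromosome 14, and all 4 and their 3 hosts had lower means in DTC tumors, also without mammary tumor 2. *Snora31* then stood at -0.18 and *Tpt1* at -0.19. For both the groups overlapped (unadjusted p = 0.108 and 0.140 by limma over 8 tumors). Over the 8 tumors 53 of the 75 members had lower means, and without mammary tumor 2, 45 of the 75 had higher ones. The shared chromosome was noticed after the values were seen, and other genes of chromosome 14 were not compared.

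*Snord61*, a box C/D RNA in *Rbmx*, a gene of an RNA-binding protein on the X chromosome, is in use as a reference RNA in qPCR of small RNAs. DTC tumors stood at 10.48, 10.68, 10.45 and 10.73 and mammary tumors at 11.32, 11.68, 10.89 and 10.96. The groups did not overlap, with a log2 fold change of -0.63 (SE 0.20, adjusted p = 0.219 by limma), or -0.48 without mammary tumor 2. *Rbmx* differed by -0.40 (adjusted p = 0.280 by limma), or -0.46 without mammary tumor 2. Other such reference RNAs were *Snord70* and *Snord72*. *Snord70*, in *Nop58*, had 9.81, 10.02, 9.91 and 10.05 in DTC tumors and 10.42, 10.98, 10.11 and 10.17 in mammary tumors. Its log2 fold change was -0.47 (unadjusted p = 0.0298 by limma), or -0.29 without mammary tumor 2, and it did not pass the interquartile filter. Its host *Nop58*, which encodes a core protein of box C/D particles, went the other way at 0.29 (unadjusted p = 0.0544 by limma), or 0.37 without mammary tumor 2. *Snord11* of the same host stood at -0.09, and changed sign to 0.13 without mammary tumor 2. *Snord72* differed by 0.12 (unadjusted p = 0.605 by limma), with groups that overlapped, and by 0.33 without mammary tumor 2 (unadjusted p = 0.0874 by limma).

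*Snord71*, in *Ap1g1*, and *Snord85* completed the lower members without overlap at an unadjusted p of 0.05 or less. *Snord71* had DTC values of 8.79, 8.78, 9.08 and 9.03 and mammary values of 9.26, 9.72, 9.22 and 9.12, with a log2 fold change of -0.41 (adjusted p = 0.331 by limma), or -0.28 without mammary tumor 2. *Snord85* had DTC values of 3.60, 3.72, 3.30 and 3.65 and mammary values of 3.94, 4.34, 4.04 and 4.08, with -0.53 (adjusted p = 0.215 by limma), or -0.45 without mammary tumor 2. These values are among the dimmest of the members, and few arrays and a low signal limit their precision. The bright probe set of *Snora33* had no overlap either, at 13.28, 13.29, 13.35 and 13.28 against 13.46, 13.58, 13.37 and 13.43, with a log2 fold change of -0.16 (unadjusted p = 0.0920 by limma), or -0.12 without mammary tumor 2. *Snord58b* was the remaining lower member at an unadjusted p of 0.05 or less, with a log2 fold change of -0.34, or -0.23 without mammary tumor 2, and its groups overlapped.

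Members that act in the processing of the ribosomal RNA precursor differed among themselves. *Snord13*, known as U13, had DTC values of 10.47, 10.69, 10.73 and 10.44 and mammary values of 11.20, 12.08, 11.12 and 10.48. Mammary tumor 4 lay within the DTC range, and the log2 fold change was -0.64 (adjusted p = 0.338 by limma), or -0.35 without mammary tumor 2. *Snord118*, known as U8 and needed for the RNA of the large subunit, had 7.78, 7.46, 7.64 and 7.95 against 7.62, 9.09, 8.02 and 7.19, and its change of -0.27 went to 0.10 without mammary tumor 2. *Snora73a* and *Snora73b*, copies of U17 in *Snhg3*, were on the other side. *Snora73a* had 7.82, 7.86, 7.78 and 7.79 against 7.39, 8.04, 7.52 and 7.26, a log2 fold change of 0.26 that was 0.43 without mammary tumor 2. *Snora73b* had 7.64, 7.93, 7.69 and 7.64 against 7.14, 7.71, 7.54 and 7.10, a log2 fold change of 0.35 that was 0.46 without it. None of these 4 was called by limma, and *Snora73b* did not pass the interquartile filter.

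The sign of the group difference was the same in snoRNA and host for 31 of the 62 pairs, and for 41 of the 62 without mammary tumor 2. Over the 46 hosts the median log2 fold change was 0.04, with 27 higher and 19 lower in DTC tumors, and 4 higher and 2 lower at an unadjusted p of 0.05 or less. The median was 0.07 without mammary tumor 2, with 30 higher and 16 lower. *Snhg6*, host of *Snord87*, stood at 10.03, 10.14, 9.57 and 9.98 in DTC tumors and at 9.52, 9.70, 9.42 and 9.51 in mammary tumors. Its log2 fold change was 0.39 (adjusted p = 0.329 by limma), and that of *Snord87* was 0.01. Leaving out mammary tumor 2 gave 0.45 and 0.10. *Ncl* had 0.23 (adjusted p = 0.506 by limma), and its *Snord82* had -0.10 and *Snora75* -0.12. With mammary tumor 2 left out, the values were 0.22 for *Ncl*, 0.002 for *Snord82* and 0.39 for *Snora75*, so the opposite signs rested on that tumor.

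Most genes for proteins that build and carry snoRNAs had higher means in DTC tumors, where the share over all probe sets was 53.4%. In each list limma called 0, but only genes past the interquartile filter were tested for calls. Among the core proteins these were only *Nop56* and *Nop10*. Of the core proteins of box C/D particles 3 of 5 listed were measured, and all 3 means were higher, *Nop58* by 0.29, *Nop56* by 0.22 and *Snu13* by 0.13. Of the 4 core proteins of box H/ACA particles 3 were higher, and *Dkc1*, which encodes dyskerin, was at -0.02. Of 11 measured assembly factors 9 had a higher mean, and 3 were higher at an unadjusted p of 0.05 or less. These were *Tgs1*, the methylase that caps some snoRNAs, at 0.60, the helicase *Ruvbl2* at 0.39 and the chaperone adaptor *Pih1d1* at 0.23, with adjusted p values by limma of 0.282 and 0.305 for *Tgs1* and *Ruvbl2*. *Pih1d1* did not pass the interquartile filter. The counts of higher means were 3 of 3, 3 of 4 and 8 of 11 without mammary tumor 2, and *Ruvbl2*, at 0.45, was the assembly factor still at that threshold.

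Of 23 genes of ribosomal RNA synthesis and processing 16 averaged higher in DTC tumors, and the median was 0.05. *Mphosph10* (0.38), *Npm1* (0.30) and *Ncl* were higher and *Taf1a* (-0.26) lower at an unadjusted p of 0.05 or less. Of 7 measured genes of small RNA decay 4 were higher, among them the exosome subunit *Exosc3* (0.48) and the nuclease *Xrn2* (0.32) at that threshold. Noncoding hosts had 12 of 17 higher means with a median of 0.05, and coding hosts of the list 25 of 42 with a median of 0.05. In the same order, higher means numbered 17 of 23 (median 0.11), 5 of 7, 11 of 17 (median 0.13) and 27 of 42 (median 0.08) without mammary tumor 2. *Ncl*, *Taf1a* and *Xrn2* then no longer reached an unadjusted p of 0.05. The background of these counts is that of the members, 5.3% higher and 6.19% lower at an unadjusted p of 0.05. Fibroblast markers differed with the groups: 4 of 5 had lower means in DTC tumors, 2 of them at an unadjusted p of 0.05 or less, with a median log2 fold change of -0.42 and summed levels of 11.19 to 11.65 in DTC and 11.56 to 12.02 in mammary tumors. Without mammary tumor 2, 5 of 5 had lower means, with a median of -0.38. Their part in the group differences of snoRNAs and hosts was not tested.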

How the data were processed

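RNA of 4 DTC tumors and 4 mammary tumors was hybridized to 1 array each. With oneChannelGUI the authors read the scans and normalized them by the sketch-quantile method, which can compress differences that run through a whole array, and they deposited 1 log2 value per probe set. The probe summarization, the software versions and the genome build were not given in the sources used here. Arrays carry no read depth, and their number limits the precision.

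Probe sets were named from the platform annotation: 23521 had 1 symbol, 1820 several and 16004 none. Chromosomes, host genes and start sequences came from RefSeq (GRCm38.p6). For group differences, limma 3.58.1 (R 4.3.3) was run with lmFit and eBayes and Benjamini-Hochberg adjustment over all probe sets tested, with the interquartile filter of 0.25 and the thresholds of the methods for calls, and without the filter for unadjusted p. A two-sided exact permutation test was added for single members. Scripts were tested on simulated data. Where a gene of a list had several probe sets, the brightest was read.

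Members and lists were chosen with earlier results of these data known. Named members were those called, up to 8 rises and 8 falls without overlap at an unadjusted p of 0.05, the 8 brightest, the 8 most variable, qPCR references and RNAs of precursor processing. Others were chosen after their values were seen: *Snora61*, *Snora68*, *Snora16a*, *Snord99*, *Snora31*, *Snord11*, *Snord58b*, *Snord43*, *Snora30*, *Snord15a*, *Snora7a*, the host genes beside them and the other short RNAs. *Snord88a* and *Snora28*, among the most variable, had mammary SDs of 0.68 and 0.57. Several-symbol probe sets, *Snord68* among them, were not named. Alternatives covered the filter, dim probe sets, 1 probe set per symbol, normalization, variance model, array weights, replicate block, membership and leaving out each tumor. Values of hosts and lists without mammary tumor 2 were added after seeing the data.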

Additional observations from a re-analysis of the deposited data

Results flagged for a closer look

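Mostly among the named members, 56 groups of 4 tumors were examined for a tumor far from the other 3. The criterion was its gap to the nearest, as a share of the range, past Dixon's critical value. Chance gives about 1 in 20, but some named members were chosen for a large spread, among them *Snora74a*, *Snora62* and *Snord88a*. That rate therefore does not apply to their groups. In 7 groups 1 tumor was that far away. In mammary tumors these were *Snora74a*, at 10.39 in tumor 2 with the others at 6.92 to 7.10, and *Snora62*, at 12.17 in tumor 2 with the others at 9.49 to 9.73. In DTC tumors they were *Snora33* (bright probe set), at 13.35 in tumor 3 with the others at 13.28 to 13.29, *Snord16a*, at 12.26 in tumor 2 with 12.12 to 12.14, and *Snora74a*, at 7.64 in tumor 1 with 7.25 to 7.31. *Snord88a* stood at 5.44 in DTC tumor 4 with the others at 5.91 to 5.97, and *Snora73b* at 7.93 in DTC tumor 2 with 7.64 to 7.69. Over all 75 members 5 mammary groups (6.67%, all probe sets 5.57%) and 6 DTC groups (8%, all probe sets 5.65%) had such a tumor. In all 5 mammary groups it was tumor 2 at the top, so this held for 6.67% of the members, against 0.82% of all probe sets.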

How the results depend on the processing

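The count of called snoRNAs stayed at 0 under all alternatives but 2. It was 1, *Snora44*, with the robust trended variance model and without DTC tumor 1, so that leaving out a tumor gave 0 to 1. The members higher at an unadjusted p numbered 4, and 2 with the interquartile filter first and 1 to 11 when a tumor was left out. Those counts were 1 without DTC tumor 2, 2 without DTC tumor 4, mammary tumor 1 or mammary tumor 4, and 11 without mammary tumor 2. The members lower numbered 8, and 5 to 12 when a tumor was left out, with 5 without DTC tumor 1. The median log2 fold change of -0.10 ran from -0.20 to 0.06 when a tumor was left out, and changed sign only without mammary tumor 2. The median mammary SD of 0.37 ran from 0.17 to 0.44, with 0.17 without mammary tumor 2. The cause was not tested. The deviation of mammary tumor 2 (0.51) was 0.50 to 0.53 under 3 other normalizations, chosen after seeing the data. They were applied to the deposited values, which were already normalized, and not to the scans, so they could change little. In 128 alternatives over the 9 members without overlap at an unadjusted p of 0.05, the direction was kept in 128. Leaving out a tumor could not reverse the direction, since these members were chosen for groups without overlap. The filter, the variance model and the replicate block left the fold changes as they were, so this count tests little. An adjusted p of 0.05 was passed in 2 of the alternatives, both for *Snora44* (adjusted p from 0.045 to 0.218 by limma). Leaving out Snord113 to Snord116 removed nothing. The labels give no pairing for tumors of the same replicate number. Their deviations correlated at 0.004 to 0.17, and 4 of 8 tumors correlated best with their own number. Whether the numbers mark pairs was not tested. With the replicate block, calls were 0, with 5 higher and 11 lower at an unadjusted p and a median of -0.10.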
